A study of Mus musculus with 4 samples.

Results

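The 36 genes described here mark the cells of brain blood vessels: 29 are used as markers of endothelial cells, which line the vessels, and 7 as markers of pericytes, the cells wrapped around capillaries. They were chosen by name from cell type knowledge, and their probes were found through the RefSeq accession in the array files. All 36 were found, on 40 probes, out of 22911 genes with a RefSeq match. All 40 probes were well above background on all 4 arrays, so no member was lost to the filter on dim probes, which left 16524 named genes. The samples were whole cerebella of C57BL/6 mice at postnatal day 28. The 2 control mice were homozygous for a floxed Derl2 allele (Derlin-2flox/flox). The 2 knockout mice, called KO, carried the floxed allele together with Cre recombinase under the nestin promoter. The deleted gene codes for a protein in the membrane of the endoplasmic reticulum that takes part in clearing misfolded proteins. The labels give no Cre-positive control without floxed alleles, no sex, and no statement that animals were pooled or littermates.

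Endothelial cells of the brain are sealed to each other by tight junctions, and they express transporters that carry sugar, amino acids, lipids and hormones across the wall and pump drugs back into the blood. This barrier is set up by signals from neural cells, among them Wnt ligands and vascular endothelial growth factor, and it depends on pericytes, which endothelial cells recruit through platelet-derived growth factor. Endothelial cells arise from mesoderm, so they lie largely outside the neural lineage in which nestin-Cre is active. The arrays carry no measure of Cre activity in vessel cells.

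Each value below is the log2 signal of a probe minus the 75th percentile of its array, and for genes with several probes the brightest is given. Levels of different probes cannot be compared with each other, so only differences between arrays are described. On the brighter Derl2 probe the KO mean was 37.6% of the control mean, from log2 signals of 2.13 and 2.20 (control) and 0.81 and 0.70 (KO). The 4 arrays share 1 slide, where controls took the first positions and KO the last, so position and group cannot be told apart; 0 spots were saturated. On control replicate 2 the choroid plexus markers stood apart: their summed signal, in units of the array's 75th percentile, was 247.6 on that array and 33.6, 24.8 and 26.8 on control replicate 1, KO replicate 1 and KO replicate 2. The summed signal of 7 red blood cell markers was also highest there, at 598.1 against 405.9 to 422.2. With 4 arrays, precision is limited by their number. The titles number the samples within each group and do not name animals. Each sample is taken here as 1 animal, and p-values measure the spread between these samples alone.

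The levels of the vascular genes in KO cerebellum lay close to those in control. Of the 36 members, 0 passed a Benjamini-Hochberg adjusted p of 0.05 in limma, as did 0 of all 37516 probes tested (0%). Both probes of the deleted gene Derl2 missed it too (limma adjusted p 0.273 each). Missing this threshold therefore does not show that a gene's level was unchanged. At an unadjusted p under 0.05, 1 member was higher in KO, Sox17, against 3.16% of all named genes, and 1 was lower, Bsg, against 5.65%. With 1 array left out, a group holds a lone array, so p-values of such fits cannot show whether these calls would last. In size, Bsg ran from -0.41 to -0.27 over these fits and Sox17 from 0.24 to 0.44. Some other members moved more. Flt1 ran from -0.51 to 0.07, Pltp from -0.44 to -0.02 and Tie1 from -0.57 to -0.01. Vtn ran from -0.44 to -0.13, Slc7a1 from 0.14 to 0.69 and Kdr from -0.49 to 0.28. None of the 36 differed by 1.5-fold or more, which 4.78% of all named genes did; with KO replicate 1 left out Sox18 did (-0.63), and with KO replicate 2 left out Slc7a1 did (0.69). The differences ran from -0.34 to 0.41 on the log2 scale. The groups did not overlap for 2 members higher in KO, against 13.8% of named genes, and for 10 lower in KO, against 32.2%. With all 4 arrays, none of these shares of members was above that of all named genes.

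The median difference was -0.10 over the 29 endothelial genes and -0.15 over the 7 pericyte genes, beside -0.06 over all named genes. The endothelial median was -0.0239 without KO replicate 2, -0.0656 after quantile normalization and -0.037 with spike-in scaling. The pericyte median was -0.0554 without control replicate 2 and -0.222 without control replicate 1, and -0.0811 with spike-in scaling. In KO, 11 of the 36 members were higher (30.6%), compared with 36.1% of all named genes. The 95% interval of the limma fit lay within a 2-fold change in either direction for 34 members and within 1.5-fold for 22. The exceptions to the 2-fold bound were Slc7a1, with an interval from -0.19 to 1.01, and Sox18, with one from -1.15 to 0.64. In whole tissue, fewer vessel cells and less RNA per cell cannot be told apart.

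**Figure D1:**
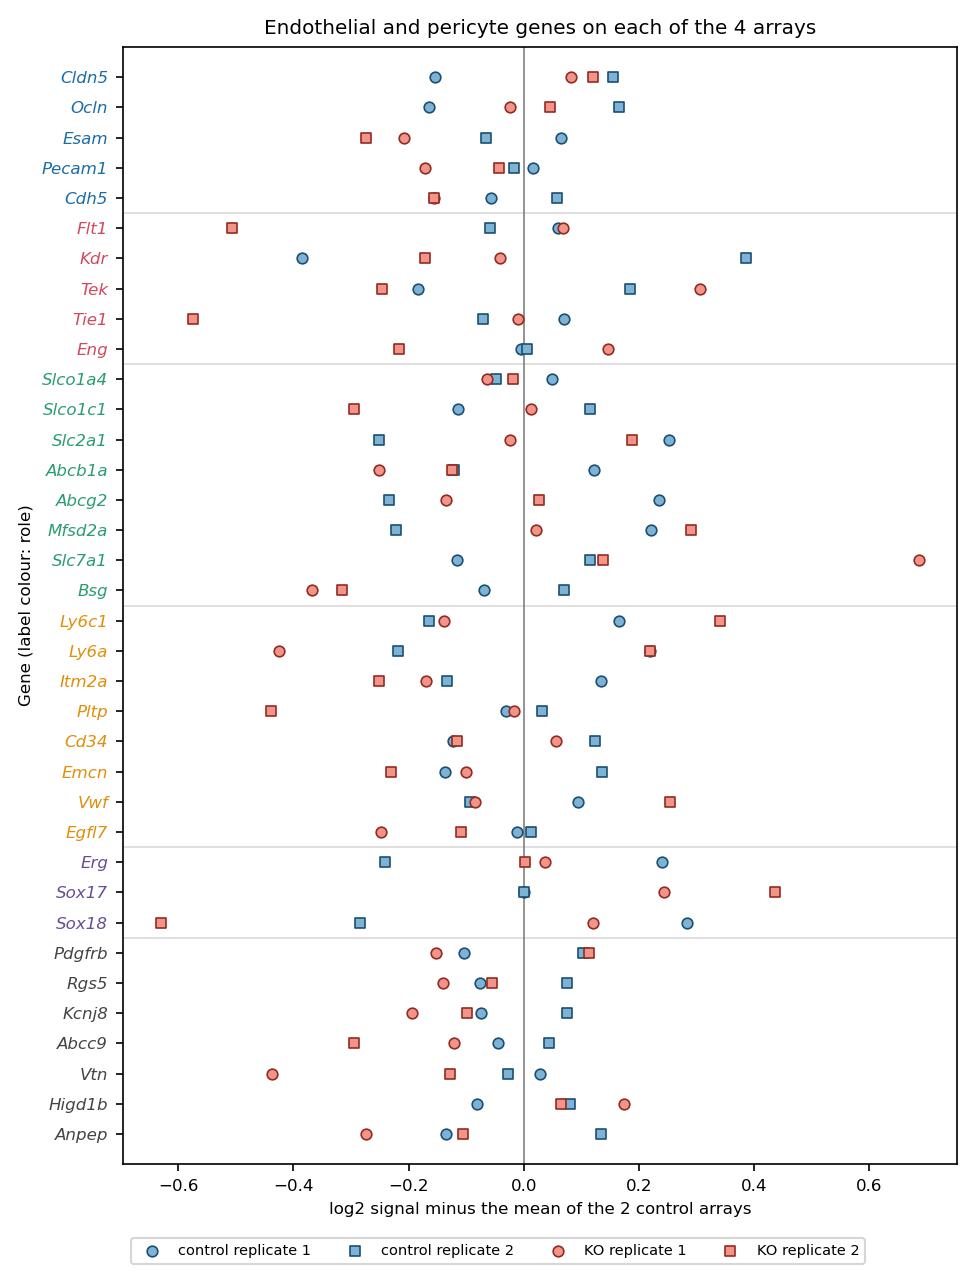
Log2 signal of each member on each array (x axis), minus the mean of the 2 control arrays, with genes in rows grouped by role. Circles are replicate 1 and squares replicate 2. The ranges of KO symbols (red) and control symbols (blue) overlap for most genes. Both KO symbols lie right of both control symbols for 2 genes and left of both for 10. Slc7a1 on KO replicate 1 stands farthest to the right.

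Among the junction proteins, Cldn5 encodes claudin-5, the main tight junction claudin of brain endothelium. It read 2.61 and 2.92 in control and 2.85 and 2.89 in KO. Both KO values lay between the control values, and the difference was 0.10 (SE 0.14; limma adjusted p 0.766). Ocln, which encodes the tight junction protein occludin, read -1.56 and -1.23 in control and -1.42 and -1.35 in KO, again inside the control range (difference 0.01, SE 0.15). The other junction genes had groups that did not overlap, all lower in KO by small amounts. Of all named genes, 32.2% were lower in KO without overlap. Esam, an adhesion molecule of endothelial junctions, read -0.04 and -0.17 in control and -0.31 and -0.38 in KO (difference -0.24, SE 0.11; limma adjusted p 0.407). Cdh5, which encodes VE-cadherin, the adherens junction cadherin of endothelium, read -0.71 and -0.59 in control and -0.81 in each KO mouse. The difference of Cdh5 was -0.16 (SE 0.10), and that of Pecam1, an adhesion molecule at endothelial contacts, was -0.11 (SE 0.11).

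For all 5 receptors of vascular growth factors, the larger of the 2 differences between animals of a group exceeded the group difference. For 2 of them both did. Flt1 and Kdr encode the receptors for vascular endothelial growth factor. Flt1 read 3.24 and 3.12 in control and 3.25 and 2.68 in KO, so that KO replicate 2 was low and KO replicate 1 lay at the control level (difference -0.22, SE 0.22). Kdr read 0.35 and 1.12 in control and 0.69 and 0.56 in KO, with both KO values between the controls (difference -0.11, SE 0.28). Tek, the angiopoietin receptor, read -1.87 and -1.51 in control and -1.39 and -1.94 in KO, a difference of 0.03 (SE 0.24). Tie1, its partner receptor, read -1.60 and -1.74 in control and -1.68 and -2.25 in KO, a difference of -0.29 (SE 0.22). Eng, which encodes endoglin, a co-receptor for transforming growth factor beta family ligands, read -0.83 and -0.82 in control and -0.68 and -1.05 in KO (difference -0.04, SE 0.16; 0.03 when arrays were scaled to spike-in probes). Flt1, Tek, Tie1 and Eng were thus each lowest on KO replicate 2, by 0.58, 0.55, 0.56 and 0.36 below KO replicate 1. The limma adjusted p of the 5 receptors lay between 0.575 and 0.966.

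The promoters of these 4 receptors, which were low together on KO replicate 2, are shown beside those of Ly6c1 and Slc2a1, which were higher on that array than on KO replicate 1 (values follow). Each run holds the 250 bases before a RefSeq start of build GRCm38.p6, 5′ to 3′ on the gene's strand, with AGGAAG or its reverse complement CTTCCT in capitals. AGGAAG is a common core of binding sites for ETS factors, the family of the endothelial regulator Erg. Flt1 lies at chr5:147726012-147726261 on the minus strand, Tek at chr4:94739039-94739288 on the plus strand, Tie1 at chr4:118489850-118490099 on the minus strand, Eng at chr2:32646345-32646594 on the plus strand, Ly6c1 at chr15:75048838-75049087 on the minus strand and Slc2a1 at chr4:119108495-119108744 on the plus strand.
Flt1: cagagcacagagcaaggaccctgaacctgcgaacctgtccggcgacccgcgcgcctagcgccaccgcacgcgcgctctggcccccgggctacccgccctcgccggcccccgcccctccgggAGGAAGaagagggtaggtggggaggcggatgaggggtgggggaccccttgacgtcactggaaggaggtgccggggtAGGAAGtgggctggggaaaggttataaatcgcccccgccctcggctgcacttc
Tek: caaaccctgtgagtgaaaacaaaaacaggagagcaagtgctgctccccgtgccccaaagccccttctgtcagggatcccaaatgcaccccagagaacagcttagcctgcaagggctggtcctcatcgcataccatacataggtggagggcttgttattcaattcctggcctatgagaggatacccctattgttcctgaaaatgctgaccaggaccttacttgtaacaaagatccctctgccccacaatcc
Tie1: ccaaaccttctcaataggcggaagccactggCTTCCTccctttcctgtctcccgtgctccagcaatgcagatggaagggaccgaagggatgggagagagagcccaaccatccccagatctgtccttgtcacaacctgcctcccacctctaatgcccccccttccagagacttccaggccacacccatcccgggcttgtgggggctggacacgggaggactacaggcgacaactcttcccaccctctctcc
Eng: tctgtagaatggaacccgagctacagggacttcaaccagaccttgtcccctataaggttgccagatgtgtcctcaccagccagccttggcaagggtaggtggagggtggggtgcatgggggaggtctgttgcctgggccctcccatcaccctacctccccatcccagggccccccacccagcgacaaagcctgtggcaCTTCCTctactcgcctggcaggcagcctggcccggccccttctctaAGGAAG
Ly6c1: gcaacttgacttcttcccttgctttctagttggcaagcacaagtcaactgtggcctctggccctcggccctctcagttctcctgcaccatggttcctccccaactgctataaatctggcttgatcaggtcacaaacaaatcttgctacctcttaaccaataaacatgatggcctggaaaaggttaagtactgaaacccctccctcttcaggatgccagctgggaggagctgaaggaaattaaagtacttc
Slc2a1: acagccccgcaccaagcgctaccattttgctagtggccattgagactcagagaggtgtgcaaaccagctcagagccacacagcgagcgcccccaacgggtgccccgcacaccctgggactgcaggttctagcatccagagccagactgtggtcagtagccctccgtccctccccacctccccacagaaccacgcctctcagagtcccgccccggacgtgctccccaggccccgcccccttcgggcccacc
Ly6c1 has 2 starts in the table, of which the first listed is printed.

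The letters were found 2 times in the Flt1 window, starting 129 and 53 bases before the start, 1 time in that of Tie1, at 219 bases, and 2 times in that of Eng, at 52 and 6 bases. They were not found in the windows of Tek and Slc2a1, nor in the Ly6c1 window printed; of the 2 Ly6c1 windows, 1 holds them, at the start that is not printed. RefSeq promoters were matched for 26 of the 36 members, with 35 starts. AGGAAG on either strand was in 16 of these 35 windows (45.7%), against 29.5% of all 32851 windows of the same length. Of the other letters searched on both strands, ACAATG, a core of SOX sites, was in 11.43% of members' windows and 10.69% of all, and TGTTTA, a core of forkhead sites, in 14.29% and 12.03%. No overlap between these motifs was removed. The genes printed were picked with their values known. Abcg2, Mfsd2a, Ly6a and Vwf, among others, were also higher on KO replicate 2 than on KO replicate 1. Abcg2 held AGGAAG at 3 of 3 starts and Mfsd2a at 0 of 1, while no start was matched for Ly6a and Vwf. Pltp, which was low on KO replicate 2, held it at 0 of 1. A match describes letters and not a bound site, and the receptors that were low on KO replicate 2 do not all carry one.

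The barrier transporters held the largest member difference in each direction. Slc7a1 encodes a cationic amino acid transporter that many cell types express. It read 2.996 and 3.23 in control and 3.80 and 3.25 in KO, a difference of 0.41 (SE 0.22; limma adjusted p 0.466). Only KO replicate 1 was clearly above the controls, and KO replicate 2 exceeded control replicate 2 by little. Bsg encodes basigin, a glycoprotein that is abundant on brain endothelium, where it accompanies lactate transporters, and that other brain cells express too. It read 3.85 and 3.99 in control and 3.55 and 3.60 in KO. Both KO values lay below both control values, and the KO mean was 78.9% of control. The difference of -0.34 (SE 0.11) had an unadjusted limma p of 0.0313 and an adjusted p of 0.327. The unadjusted call was lost with quantile normalization and with spike-in scaling. With 1 array left out the difference ran from -0.41 to -0.27.

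The transporters of glucose, drugs and lipids did not separate the groups in one direction. Slc2a1, the glucose transporter GLUT1 of the barrier, read 4.39 and 3.88 in control and 4.11 and 4.32 in KO, with both KO values between the controls (difference 0.08, SE 0.21). Mfsd2a, the lysolipid transporter that also restrains transcytosis in barrier endothelium, read 1.89 and 1.45 in control and 1.69 and 1.96 in KO (difference 0.16, SE 0.20). The drug efflux pumps Abcb1a and Abcg2 differed by -0.19 (SE 0.13) and -0.05 (SE 0.19; 0.01 with spike-in scaling). For Abcb1a, KO replicate 2 and control replicate 2 were almost equal, at 0.572 and 0.575. The organic anion transporters Slco1a4 and Slco1c1, the second of which carries thyroxine, differed by -0.04 (SE 0.10; 0.03 with spike-in scaling) and -0.14 (SE 0.16). The second Slco1c1 probe read 0.36 and 1.06 in control and 0.49 and 0.14 in KO. It was highest on control replicate 2, the array with the high choroid plexus signal, as was Kdr, and the part of that tissue in these values was not tested.

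**Figure D2:**
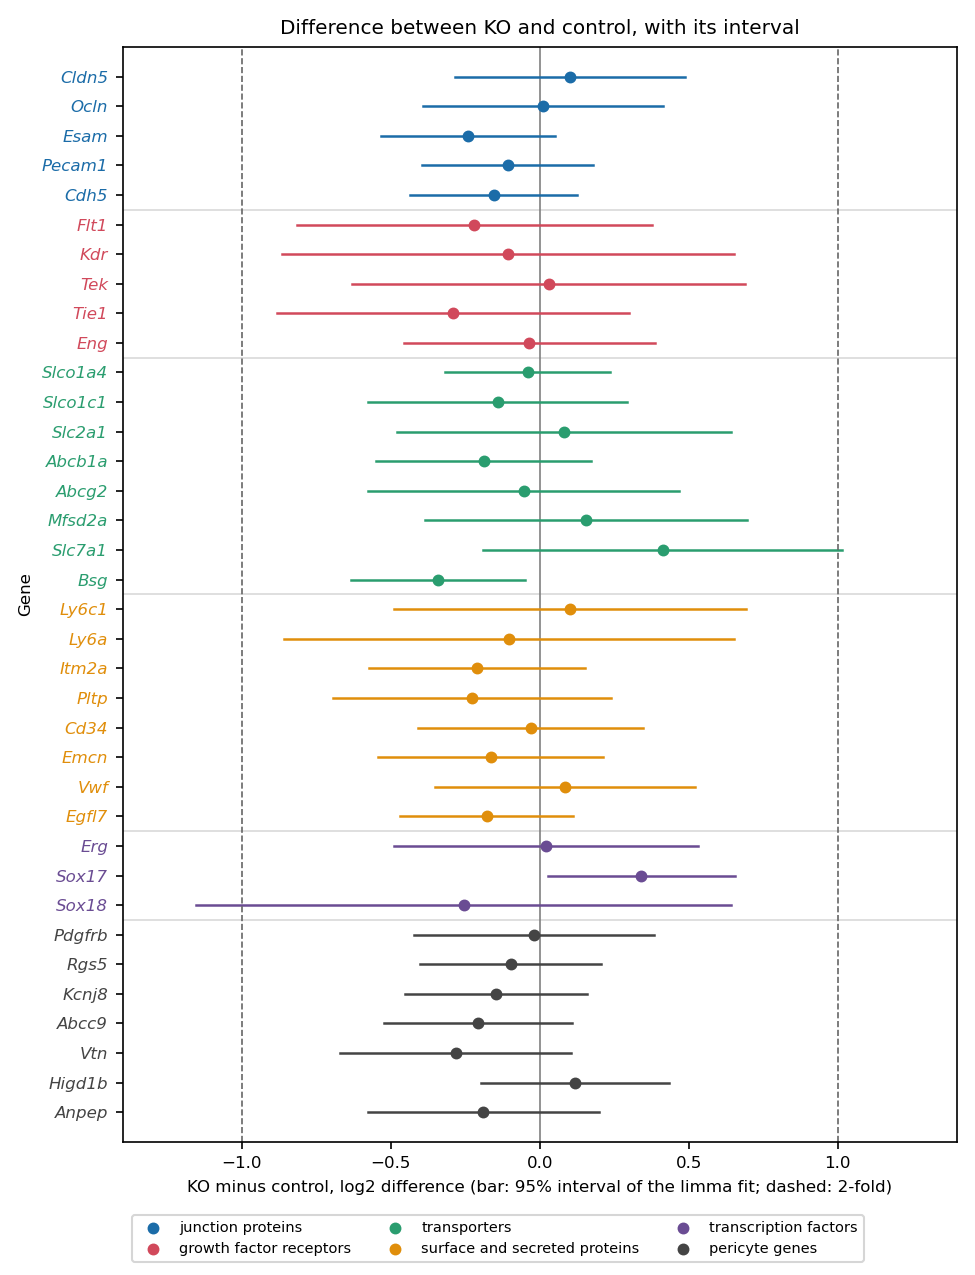
Difference between KO and control for each member (x axis, log2), with the 95% interval of the limma fit as a bar and a 2-fold change as dashed lines. The intervals of Slc7a1 and Sox18 cross a dashed line, and those of Sox17 (0.03 to 0.65) and Bsg (-0.63 to -0.05) do not include 0 before adjustment for the number of probes.

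Among the surface and secreted markers, the larger difference between animals of a group exceeded the group difference for 7 of 8, Egfl7 being the exception. Ly6c1 and Ly6a encode small surface proteins anchored by lipid that are abundant on mouse brain endothelium. Ly6c1 read 4.23 and 3.90 in control and 3.92 and 4.40 in KO (difference 0.10, SE 0.22), and its second probe had the same order of arrays, with 1.76 and 1.34 in control and 1.39 and 1.85 in KO. The near-identical gene Ly6c2 may also bind such probes, which was not tested. Ly6a read 1.52 and 1.08 in control and 0.88 and 1.52 in KO (difference -0.10, SE 0.28). Vwf, which encodes the clotting factor stored by endothelial cells, read 2.01 and 1.82 in control and 1.83 and 2.17 in KO (difference 0.08, SE 0.16). In all these genes the groups overlapped.

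Itm2a, a membrane protein marker of brain endothelium, and Egfl7, a secreted endothelial protein, had lower values in both KO mice. Itm2a read 3.25 and 2.99 in control and 2.95 and 2.87 in KO, a difference of -0.21 (SE 0.14; limma adjusted p 0.522). Egfl7 read 3.23 and 3.25 in control and 2.99 and 3.13 in KO, a difference of -0.18 (SE 0.11; limma adjusted p 0.501). Pltp, the phospholipid transfer protein, read 2.60 and 2.66 in control and 2.62 and 2.19 in KO, so that KO replicate 2 alone was low. The sialomucins Cd34 and Emcn differed by -0.03 (SE 0.14; 0.02 after quantile normalization and 0.04 with spike-in scaling) and -0.17 (SE 0.14). The second, dim Cd34 probe read -4.69 and -4.54 in control and -4.86 and -4.87 in KO.

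Of the transcription factors, Sox17, which takes part in arterial identity, read 3.08 and 3.08 in control and 3.32 and 3.51 in KO. Both KO values were above the controls, and the KO mean was 127% of control. The difference of 0.34 (SE 0.12) had an unadjusted limma p of 0.0390 and an adjusted p of 0.336. The unadjusted call was lost when all Sox17 probes were averaged. With 1 array left out the difference ran from 0.24 to 0.44. The second Sox17 probe, far dimmer, did not show a difference of this size. It read -5.26 and -5.81 in control and -5.25 and -5.89 in KO, a difference of -0.03 (SE 0.30). Sox18, a relative that acts with it in vessel development, read -0.51 and -1.08 in control and -0.68 and -1.43 in KO (difference -0.26, SE 0.33), and Erg, an ETS factor that maintains endothelial identity, differed by 0.02 (SE 0.19). The differences of Sox17 and Sox18 had opposite signs.

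Pericyte genes showed small differences, 6 of 7 of them below 0. Pdgfrb, the receptor through which pericytes are recruited, read 0.65 and 0.85 in control and 0.60 and 0.86 in KO (difference -0.02, SE 0.15; 0.01 after quantile normalization, 0.05 with spike-in scaling and 0.04 after normexp background correction). Rgs5, a regulator of G protein signalling that marks pericytes, read 1.46 and 1.61 in control and 1.398 and 1.48 in KO (difference -0.10, SE 0.11). Kcnj8 and Abcc9 encode the pore and the regulatory subunit of a potassium channel gated by ATP. Kcnj8 read 0.74 and 0.89 in control and 0.62 and 0.71 in KO (difference -0.15, SE 0.11). Abcc9 read -1.17 and -1.08 in control and -1.25 and -1.42 in KO (difference -0.21, SE 0.12). Both subunits had groups that did not overlap, by a margin smaller than their standard errors. The same separation, with KO lower, was seen in 32.2% of all named genes.

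Vtn, which encodes the matrix protein vitronectin, had the largest pericyte difference. It read 3.64 and 3.58 in control and 3.17 and 3.48 in KO (difference -0.28, SE 0.14; limma adjusted p 0.446). Anpep, an aminopeptidase on pericytes, differed by -0.19 (SE 0.14), with KO values inside and below the control range. Higd1b, a mitochondrial protein gene enriched in pericytes, was the member of this group with a value above 0, at 0.12 (SE 0.12). The median over the 7 genes for each pair of arrays was -0.08 and -0.26 for KO replicate 1 against control replicates 1 and 2, and 0.02 and -0.13 for KO replicate 2, so the sign was not the same in all pairs.

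For 30 of the 36 members (83.3%) the larger of the 2 differences between animals of one group exceeded the difference between the group means, compared with 67.3% of all named genes. For 15 (41.7%, against 33.2%) both did. The direction of these differences was shared by sets of genes, as read after the values were seen and without a test. In 11 members (30.6%, against 19.5% of named genes) control replicate 1 was above control replicate 2 and KO replicate 2 above KO replicate 1; the clearest were Ly6a, Ly6c1, Mfsd2a, Slc2a1, Abcg2 and Vwf. In Ly6a the difference was -0.44 from control replicate 1 to 2 and 0.64 from KO replicate 1 to 2, and in Slc2a1 -0.50 and 0.21. In 10 members (27.8%, against 21.7%) the order was the opposite, among them Tek, with 0.37 and -0.55, and Slco1c1, with 0.23 and -0.31. All 7 perivascular macrophage markers had the first order, and the median of these markers differed by -0.33 between the controls and 0.64 between the KO mice. Their part in the values of the members was not tested.

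**Figure D3:**
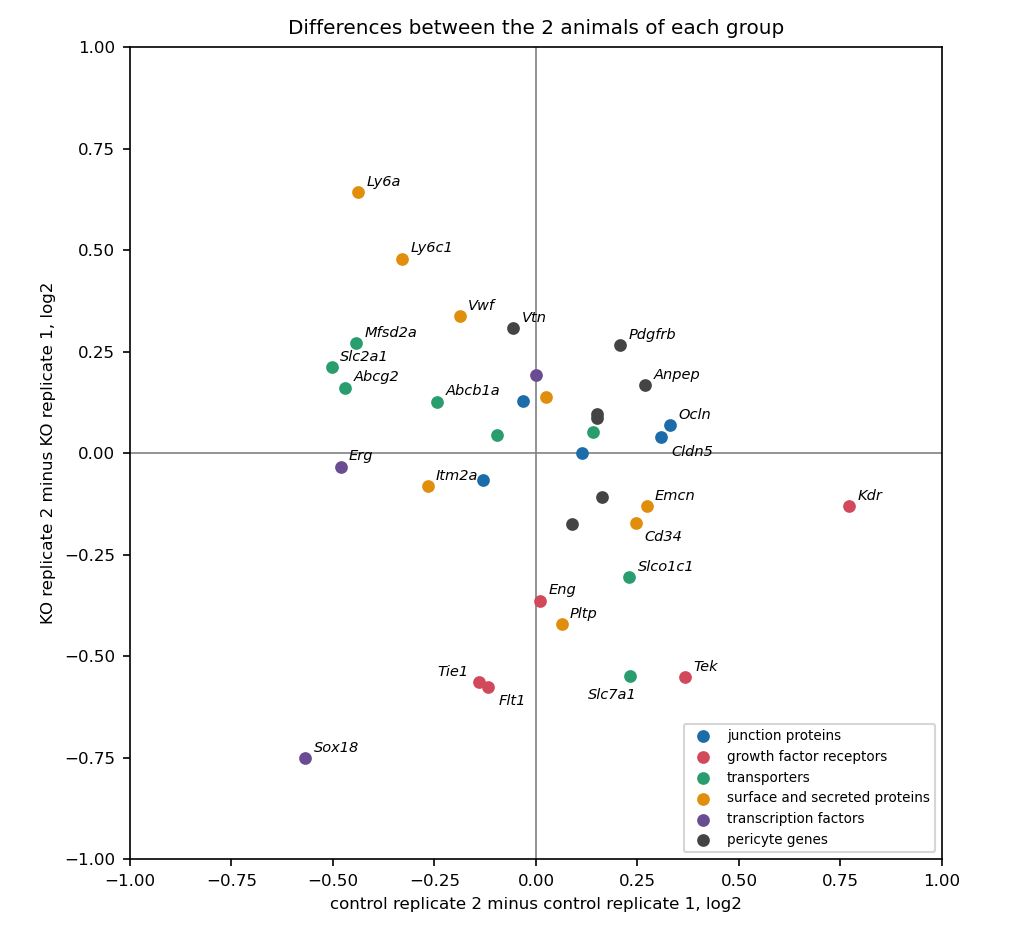
Each point is a member; the x axis is control replicate 2 minus control replicate 1 and the y axis KO replicate 2 minus KO replicate 1 (log2), coloured by role. Ly6a, Ly6c1, Slc2a1, Mfsd2a, Abcg2 and Vwf lie at the upper left, Tek and Slco1c1 at the lower right, and Flt1, Tek, Tie1 and Eng below 0 on the y axis.

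Genes around the members in vessel signalling were read from lists written for this purpose. In none of these lists did a gene pass the adjusted p of 0.05 in limma. Over all named genes, 3.16% were higher and 5.65% lower at an unadjusted p under 0.05, with a median difference of -0.06. Of 13 vascular ligands, 0 were higher and 1 was lower at an unadjusted p under 0.05 (median -0.13). That gene was Apln, the ligand apelin made by growing vessels, with 0.95 and 1.02 in control and 0.53 and 0.72 in KO (difference -0.36, SE 0.12; limma adjusted p 0.330). Vegfa, the main ligand of Kdr, read 1.76 and 1.87 in control and 2.31 and 1.997 in KO (difference 0.34, SE 0.15; limma adjusted p 0.399). Bmp6, a bone morphogenetic protein, had the largest difference of the list, -0.41 (SE 0.19). Of 13 genes of the Wnt and norrin pathway that maintains the barrier, 0 were higher and 1 lower (median -0.11). That gene was Axin2, a general Wnt target, with -2.19 and -2.13 in control and -2.50 and -2.59 in KO (difference -0.39, SE 0.10; limma adjusted p 0.290). Fzd4, the norrin receptor on endothelium, differed by -0.23 (SE 0.11), and Ndp, which encodes norrin, by -0.18 (SE 0.10).

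Of 12 junction partners, 0 passed in either direction (median -0.03), and the smallest p belonged to Gja4, an arterial gap junction protein, at -0.28 (SE 0.11). The polarity gene Pard3 and the junction adhesion molecule genes Jam2 and F11r differed by -0.25, -0.19 and -0.29. The last was the largest difference of that list. The Jam2 probe touched a patch of raised local background. Such patches covered 1350 and 32 spots on control replicates 1 and 2 and 0 on each KO array. Of 31 further endothelial genes, 0 were higher and 2 lower (median -0.01), against 3.16% and 5.65% of all named genes. Tfrc, the transferrin receptor by which iron enters the brain and most other cells, read 1.25 and 1.41 in control and 0.76 and 0.77 in KO (difference -0.57, SE 0.11; limma adjusted p 0.273). Mmrn2, which encodes multimerin-2 of the endothelial matrix, read 0.91 in each control and 0.45 and 0.28 in KO (difference -0.54, SE 0.11; limma adjusted p 0.273). Both had KO values well below the controls, while Ptprb, the endothelial phosphatase that acts on Tek, differed by -0.25 (SE 0.10). Of 14 further genes listed for pericytes, 0 passed in either direction (median -0.12), and which cells gave their signal was not tested. Cd248 had the smallest p, with -0.42 (SE 0.17). It was followed by Heyl, a Notch target, with -0.35 (SE 0.22) and Cspg4, the NG2 proteoglycan, with -0.16 (SE 0.11).

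Markers of the cells beside endothelium and pericytes were read in the same way. Of 10 smooth muscle markers 9 were measured, 8 of them lower in KO, with a median of -0.43. Over all 16524 named genes, 10557 were lower. The summed signal of the 9 markers was 10.1 and 8.8 in control and 7.4 and 6.7 in KO. Their median by pair of arrays was below 0 in all 4 pairs, from -0.57 to -0.09. Within groups their median difference was also below 0, at -0.40 from control replicate 1 to 2 and -0.27 from KO replicate 1 to 2. Actg2, a smooth muscle actin, read 0.27 and 0.23 in control and -0.28 and -0.29 in KO (difference -0.54, SE 0.10; limma adjusted p 0.273). It was the marker with an unadjusted p under 0.05, at which 5.65% of all named genes were lower. Acta2, the actin of arterial muscle, read 2.10 and 2.18 in control and 1.85 and 1.93 in KO, a difference of -0.25 (SE 0.10). Tagln, an actin-binding protein of the same cells, spread widely, with 1.47 and 0.87 in control and 0.78 and 0.17 in KO. Tpm2, a tropomyosin, differed by -0.57 (SE 0.22), and the dim Cnn1 had the largest difference, -1.35 (SE 0.68), from -1.95 and -3.52 in control to -3.49 and -4.68 in KO.

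The 14 meningeal fibroblast markers had a median of -0.19, with 13 lower and 2 of these, Lum and Slc22a6, at an unadjusted p under 0.05. Of all 16524 named genes, 10557 were lower, and 5.65% were lower at that threshold. The summed signal of the 14 markers was 250.3 and 241.9 in control and 224.1 and 237.8 in KO. Most of this sum came from the brightest marker, Ptgds, which read 7.69 and 7.63 in control and 7.57 and 7.61 in KO. The 7 perivascular macrophage markers had a median of 0.26 and summed to 2.44 and 1.95 in control and 1.96 and 3.05 in KO. The 12 microglia markers had a median of -0.21, with 12 lower in KO and 6 of these without overlap. The 10 astrocyte markers had one of -0.13, with 8 lower and 6 of these without overlap. Of all named genes, 32.2% were lower without overlap. All 36 members summed to 164.6 and 156.1 in control and 154.1 and 160.2 in KO. The part of these cells in the values of members they also express was not tested.

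**Figure D4:**
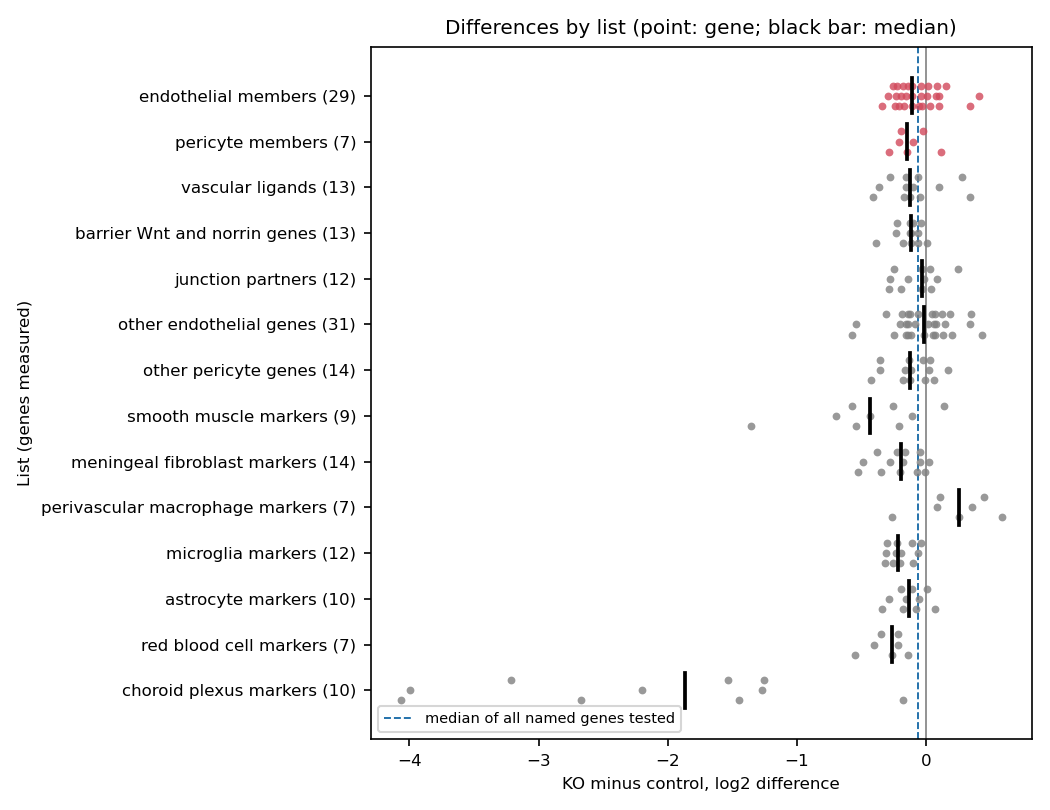
Difference between KO and control (x axis, log2) for each gene of the member groups (red) and of the other lists (grey); black bars are list medians and the dashed line is the median of all named genes tested (-0.06). The smooth muscle median lies at -0.43 and the choroid plexus median, whose markers were high on control replicate 2, at -1.87.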

How the data were processed

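RNA from 4 whole cerebellum samples, 2 control and 2 KO by their titles, was labelled (150 ng, Cy3) and hybridised to Agilent one-colour arrays, per the labels' protocols. The authors deposited a processed intensity, linear, from which Feature Extraction had removed background and a spatial trend; its version is 12.1.1.1 per the file headers and 10.7.1.1 per the submitters' processing notes. The deposited series table holds log2 values, with a scale not stated in the labels. Differences between its columns equalled those computed here, less a constant per array, within 0.01 for 100% of the 37516 probes tested; its column medians were 0.007, -0.19, -0.16 and -0.22, and what each probe was centred on is unknown. Control spots and spots well above background are marked by flags, per the file headers.

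Processed signals were put on the log2 scale and averaged per probe, leaving out control and outlier-flagged spots, and the array's 75th percentile was subtracted. A probe entered the tests if both arrays of at least 1 group had it well above background (37516 of 56559). Of 56605 probes, 32994 were named through RefSeq accessions without versions (assembly GRCm38.p6). Groups were compared with limma 3.58.1 in R 4.3.3 (lmFit and eBayes without covariates), with p-values adjusted by Benjamini-Hochberg across the tested probes; 2 against 2 arrays give 4.35 degrees of freedom in all. The fit was tested on simulated data. The members, gene lists and tests were chosen with earlier results of these data known, and lists are described by counts and medians without a test. Genes named outside the members come from the 3 with the smallest p in each list, the largest difference in each pathway list and the brightest 3 of each marker list; of the marker lists only some of these are named. Cnn1 was chosen after its values were seen. Alternatives were other scalings, background corrections, filters, variance models, the authors' values, all probes of a gene, a replicate block and each array left out.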

Additional observations from a re-analysis of the deposited data

How the results depend on the processing

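The count of members past the adjusted threshold was 0 under each of the 14 alternatives that could change it, and the smallest adjusted p of any member ran from 0.174 to 0.633. The count of all probes past it, 0, became 1 after quantile normalization, 1 with spike-in scaling, 2 with normexp on the spot median, 1 without patch spots and 4 with an intensity trend and robust variances, and ran from 0 to 91 with an array left out, where the 91 came without control replicate 2. The endothelial median of -0.10 became -0.0656 after quantile normalization and -0.037 with spike-in scaling, and ran from -0.116 to -0.0239 with an array left out. Its moves under both scalings and without KO replicate 2 were larger than its spread between replicates (SD 0.028). The pericyte median of -0.15 was -0.0811 with spike-in scaling and ran from -0.222 without control replicate 1 to -0.0554 without control replicate 2; these moves are smaller than its spread between replicates (SD 0.095), which is wide. Of 504 member values, 468 kept their direction; 18 of the 36 members kept it throughout, Bsg, Sox17, Slc7a1 and Vtn among them. With quantile normalization the direction turned for Cd34 (0.0192) and Pdgfrb (0.0114), with spike-in scaling for Cd34 (0.0361), Abcg2 (0.0116), Pdgfrb (0.0463), Slco1a4 (0.0255) and Eng (0.0309), and with normexp for Pdgfrb (0.0387); the cause was not tested, and none of these was called. Spike-in scaling moved the median of all probes from -0.03 to 0.04. With an array left out, where a lone array is assumed to vary like the other group, differences that changed sign ran over -0.289 to 0.18 for Abcg2, -0.154 to 0.0937 for Cd34, -0.0534 to 0.256 for Cldn5, -0.217 to 0.147 for Eng, -0.221 to 0.26 for Erg, -0.507 to 0.0681 for Flt1, -0.492 to 0.279 for Kdr, -0.424 to 0.218 for Ly6a, -0.139 to 0.34 for Ly6c1, -0.0658 to 0.377 for Mfsd2a, -0.154 to 0.175 for Ocln, -0.153 to 0.113 for Pdgfrb, -0.17 to 0.334 for Slc2a1, -0.0889 to 0.0079 for Slco1a4, -0.294 to 0.0119 for Slco1c1, -0.631 to 0.12 for Sox18, -0.247 to 0.305 for Tek and -0.0842 to 0.253 for Vwf. At an unadjusted p under 0.05, Bsg was lost under both other scalings, Sox17 when all its probes were averaged, and both without the filter on dim probes. Same-numbered arrays deviated together with r = 0.12 across probes, too few pairs to show pairing; with the replicate block the count of probes called stayed at 0 and that of members at 0. Of the member probes used, 0 touched a patch of raised background.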
